A study of Mus musculus with 10 samples.

Results

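MHC molecules display peptides on the cell surface to T cells. Class I molecules pair with the light chain beta-2 microglobulin (B2m) and carry peptides cut by the proteasome, pumped into the endoplasmic reticulum by Tap1 and Tap2 and loaded with the help of tapasin (Tapbp). Class II molecules are alpha and beta chains that assemble around the invariant chain Cd74 and receive peptides in endosomes with the help of H2-DM, which H2-O restrains. Nearly all nucleated cells carry class I, whereas class II is best known from dendritic cells, macrophages and B cells. Nlrc5 and Ciita are related transactivators that lack DNA binding of their own and are recruited to a promoter element shared by both classes, Nlrc5 mainly at class I genes and Ciita at class II genes.

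The MHC and antigen processing genes described here are all rows of the gene table whose symbol begins with H2, together with B2m, Cd74, Ciita, Nlrc5, Tap1, Tap2 and Tapbp. This rule found 44 of the 17404 genes in the table, and 43 of them passed the filter of at least 11 counts in total. The member left out of the test was H2-M10.1, with 9 counts over all libraries. By class, 2 members are classical class I genes (H2-K1 and H2-D1), 23 carry nonclassical class I names (H2-Q, H2-T and H2-M, pseudogenes included), 4 are class I partners, 4 are class II chains (H2-Aa, H2-Ab1, H2-Eb1 and H2-Eb2), 6 are class II chaperones and 2 are transactivators. The remaining 3 belong to neither class here: H2-Ke6 is the enzyme gene Hsd17b8, named for its place in the MHC, and H2-K2 and H2-Bl are pseudogene or pseudogene-like rows related to class I. All H2 rows lie on chromosome 17 (GRCm38), and B2m, Nlrc5, Ciita and Cd74 lie on chromosomes 2, 8, 16 and 18.

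The libraries were made from long-term hematopoietic stem cells (LT-HSCs) sorted from mouse fetal livers at E14.5. KO embryos (n = 6 libraries) had the genotype Tnfrsf11aCre; Spi1f/f, and WT littermates (n = 4) had Tnfrsf11a+/+; Spi1f/f, so both groups carried the floxed Spi1 alleles and the groups differed in the Cre. Tnfrsf11a drives the Cre in macrophage precursors, the aim was to remove fetal macrophages, and the stem cells themselves were meant to keep Spi1. The comparison asked how stem cells from livers with fewer macrophages differed in transcript levels.

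Total counts on genes ranged from 5315435 to 30941726 in KO and from 7633446 to 18256010 in WT. Spi1 was not lower in the KO libraries, with 9.10 to 101 CPM in KO and 6.22 to 50.1 CPM in WT (CPM, counts scaled to library size with TMM normalization). The label LT-HSC was checked against 10 stem cell markers, all of them above 0 in every library, whose summed level was 547 to 985 TPM in KO and 260 to 502 TPM in WT (TPM, a transcript level scaled for length and library). Much of that sum was Esam, which endothelium also expresses, and without it the other 9 markers summed to 124 to 638 TPM in KO and 119 to 334 TPM in WT, so the groups overlapped. The WT top was in WT replicate 1, where Ly6a gave 218 TPM, and the next WT sum was 186 TPM. Ly6a was the only marker of the 10 with a negative log2 fold change (-0.88). Markers of sinusoidal endothelium, all 8 above 0 in every library, summed to 363 to 3672 TPM in KO and 55.3 to 1963 TPM in WT, the lowest in WT replicate 1 and the highest in KO replicate 3. Hemoglobin and other erythroblast markers summed to 4405 to 153741 TPM in KO and 2025 to 271586 TPM in WT. Of these 7 markers, 1 (Epor) was called lower at an adjusted p below 0.1 (edgeR) and 0 higher, beside 2.67% and 1.32% of all genes tested. Epor was at 29.7 to 49.9 TPM in KO and 31.6 to 79.6 TPM in WT. The 14 macrophage markers summed to 237 to 446 TPM in KO and 41.3 to 337 TPM in WT, and 1 of them (Marco) was called lower, at 0 in every KO library and at 1.52 to 4.63 TPM in WT. Much of that sum was Mrc1, Lyz2 and C1qb. Mrc1, like the endothelial sum, was highest in KO replicate 3 and lowest in WT replicate 1. Log2 fold changes were positive for Mrc1 (0.22), Lyz2 (0.54), Cd68 (0.30) and Msr1 (0.27). They were negative for the other markers, such as Csf1r (-1.15), C1qa (-2.04) and C1qc (-1.82), without a call except for Marco. Dendritic cell markers summed to 11.8 to 59.3 TPM in KO and 13.0 to 42.9 TPM in WT. Xist, the transcript of the inactive X chromosome, was at 73.5 to 129 CPM in the 4 WT libraries and in KO replicates 2 and 3 at 332 CPM or more, but at most 2.42 CPM in the other 4 KO libraries, so sex was unevenly spread between the groups. In bulk RNA, fewer cells of a type and less RNA per cell cannot be told apart.

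Class I dominated the levels per length, and B2m led all members. B2m stood at 423 ± 180 TPM (SD, n = 4) in WT and at 650 ± 144 TPM (SD, n = 6) in KO. H2-K1 was next in WT at 210 ± 93.2 TPM, followed by H2-T23 at 191 ± 84.3 TPM and H2-D1 at 166 ± 36.3 TPM (SD, n = 4). H2-T23 encodes Qa-1, a nonclassical molecule that presents class I leader peptides to natural killer and T cells. H2-M3, which presents formylated peptides, was at 85.1 ± 70.3 TPM in WT and 73.4 ± 51.8 TPM in KO. Neighbours in this order were not separated: B2m was above H2-K1 in 4 of 4 WT libraries, yet their ranges of 262 to 619 and 126 to 343 TPM overlapped, and H2-T23 was above H2-D1 in 2 of the 4. Taken as TMM-normalized counts per kilobase, H2-D1 at 384 stood above H2-K1 at 243 and H2-T23 at 195 in WT, so the order of these 3 depended on the source of the level. The TPM of the rows in the gene table summed to 643669 to 749194 per library, the rest lying on transcripts outside the table, so directions between KO and WT are taken below from the counts.

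**Figure D1:**
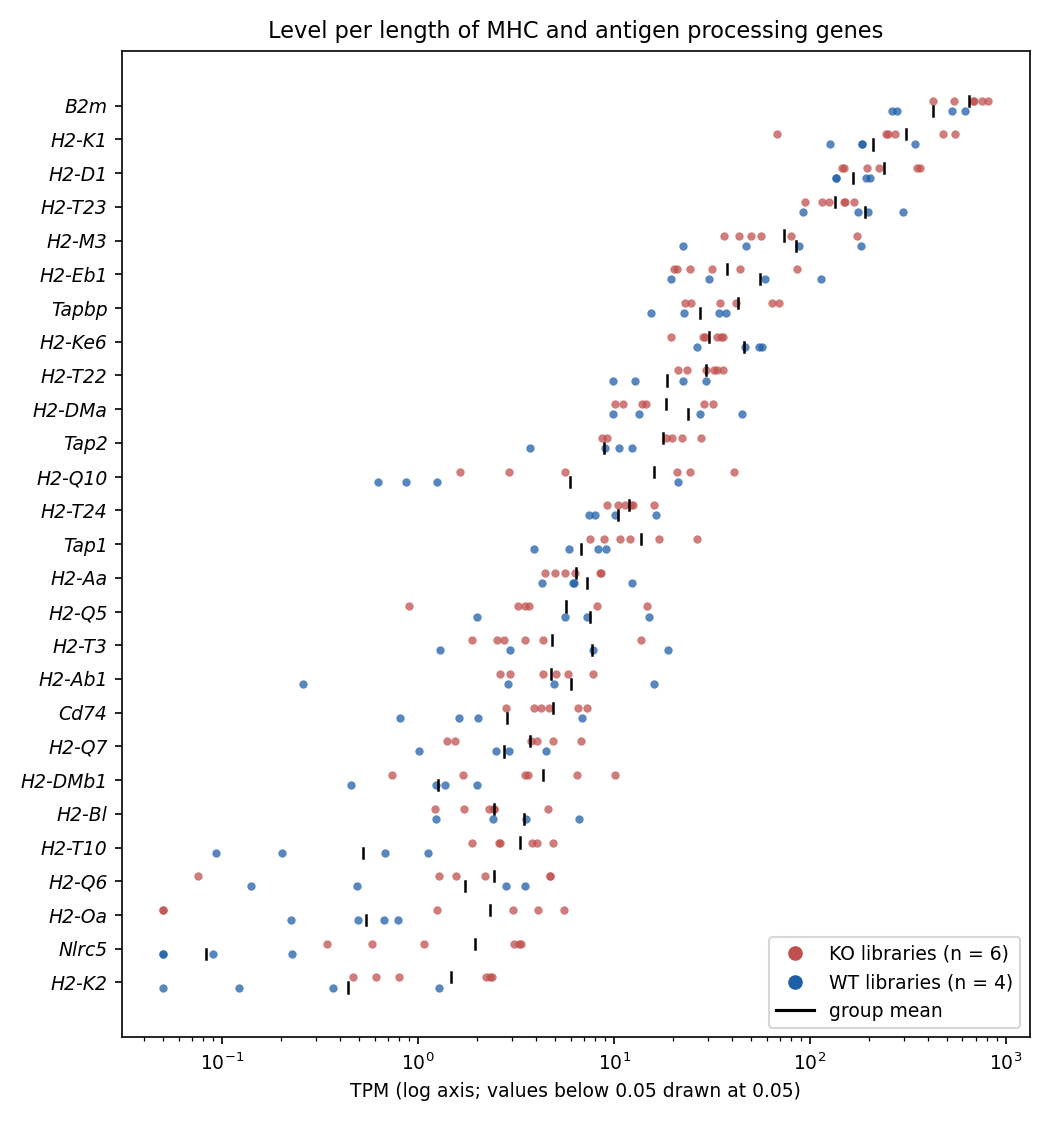
TPM (log axis) of the members with a mean of at least 1 TPM, with a dot for each of the 6 KO and 4 WT libraries and a black mark at each group mean; values below 0.05 TPM are drawn at 0.05. B2m, H2-K1, H2-D1 and H2-T23 lie at the top in both groups, H2-Eb1 is the highest class II gene, and H2-Ab1, H2-Q10 and Nlrc5 spread widely between libraries.

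Among class II genes the chain H2-Eb1 stood apart, at 55.7 ± 42.3 TPM in WT and 37.9 ± 25.2 TPM in KO. The alpha chain that pairs with it, H2-Ea, is not among the members, so the level of H2-Eb1 does not show an assembled molecule. The other class II chains and the invariant chain were far lower. H2-Aa was at 7.26 ± 3.52 TPM in WT and 6.41 ± 1.77 TPM in KO, H2-Ab1 ran from 0.257 to 15.9 TPM in WT and from 2.61 to 7.78 TPM in KO, and Cd74 was at 2.83 ± 2.75 and 4.89 ± 1.69 TPM. H2-DMa reached 23.8 ± 15.9 TPM in WT, while H2-DMb1, the other chain of H2-DM, was at 1.26 ± 0.64 TPM. Summed over their genes, the 25 class I members came to 460 to 938 TPM per WT library and 409 to 1353 TPM per KO library. The 10 class II members came to 57.5 to 175 TPM in WT and 45.4 to 152 TPM in KO, which was 8.14 to 18.7% of the class I sum in WT and 7.85 to 11.3% in KO. The groups overlapped in each of these sums.

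**Figure D2:**
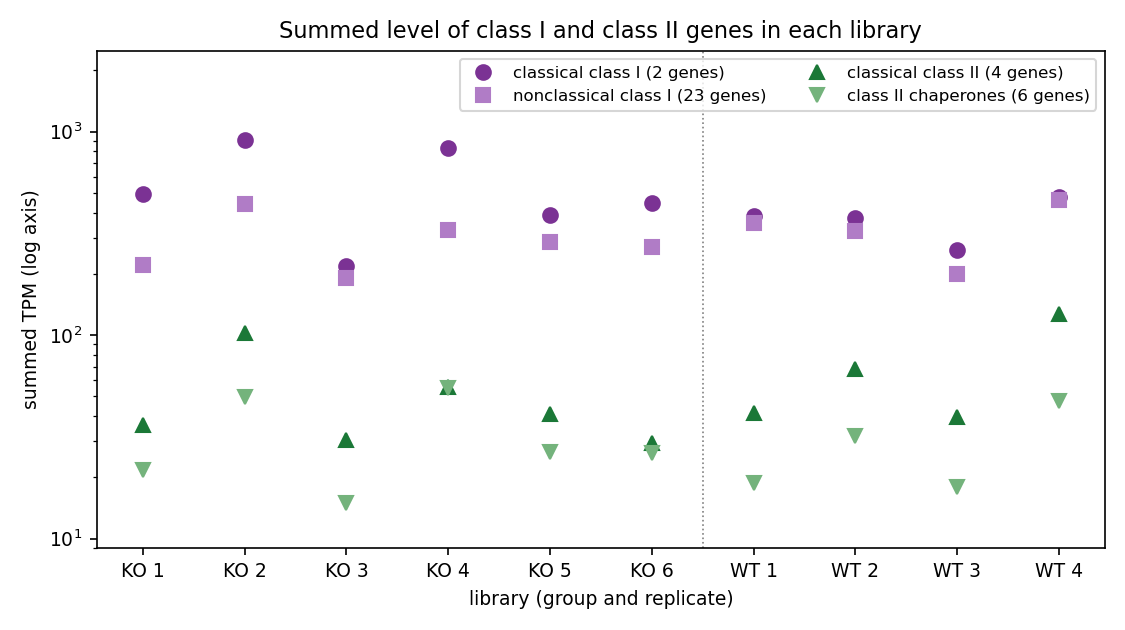
Summed TPM (log axis) of 4 gene groups in each library, KO replicates 1 to 6 on the left and WT replicates 1 to 4 on the right of the dotted line. Class I sums lie above class II sums in all 10 libraries, and KO replicate 3 has the lowest classical class I sum at 218 TPM.

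The promoter element that Nlrc5 and Ciita use is known as the SXY module, and it ends in a Y box, the CCAAT motif bound by NF-Y. The bases before the RefSeq start of the leading class I genes and of H2-Eb1 are shown because both transactivators are known to act at promoters of these classes, and Nlrc5 is the class I regulator that differed below. Each line gives the 250 bases before the start, from RefSeq on GRCm38.p6, 5′ to 3′ on the gene's strand, and capitals mark matches on either strand to the Y box letters ATTGG, the letters TGACG of the X2 box that ATF and CREB factors bind, and GAAANNGAAA, the core of the interferon-stimulated response element (ISRE). None of the marked matches overlap each other.
B2m (chr2:122147437-122147686, plus strand): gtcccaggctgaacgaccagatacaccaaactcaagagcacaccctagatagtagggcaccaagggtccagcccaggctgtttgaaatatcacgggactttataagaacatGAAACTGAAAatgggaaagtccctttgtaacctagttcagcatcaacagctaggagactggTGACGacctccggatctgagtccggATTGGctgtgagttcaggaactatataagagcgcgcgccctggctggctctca
H2-K1 (chr17:34000334-34000583, minus strand): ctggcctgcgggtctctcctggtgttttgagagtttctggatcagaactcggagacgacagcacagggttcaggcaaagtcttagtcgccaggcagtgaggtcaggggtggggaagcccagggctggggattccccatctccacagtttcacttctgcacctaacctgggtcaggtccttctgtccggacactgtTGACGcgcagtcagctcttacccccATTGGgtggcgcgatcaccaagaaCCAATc
H2-D1 (chr17:35262844-35263093, plus strand): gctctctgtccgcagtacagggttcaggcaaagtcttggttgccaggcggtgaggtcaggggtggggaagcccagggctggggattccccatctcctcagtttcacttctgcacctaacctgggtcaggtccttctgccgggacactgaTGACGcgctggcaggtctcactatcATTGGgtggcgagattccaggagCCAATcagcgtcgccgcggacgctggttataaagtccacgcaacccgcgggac
H2-T23 (chr17:36032702-36032951, minus strand): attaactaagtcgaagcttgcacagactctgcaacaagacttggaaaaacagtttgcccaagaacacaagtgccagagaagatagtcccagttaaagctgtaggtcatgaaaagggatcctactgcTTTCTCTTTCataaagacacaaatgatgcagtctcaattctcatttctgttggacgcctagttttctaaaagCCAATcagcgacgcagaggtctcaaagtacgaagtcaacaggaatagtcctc
H2-Eb1 (chr17:34305617-34305866, plus strand): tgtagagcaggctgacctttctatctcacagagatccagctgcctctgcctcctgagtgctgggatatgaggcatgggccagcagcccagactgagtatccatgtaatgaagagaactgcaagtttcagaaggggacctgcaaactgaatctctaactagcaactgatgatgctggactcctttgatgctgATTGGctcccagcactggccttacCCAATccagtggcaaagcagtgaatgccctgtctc

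In H2-K1 and H2-D1 the same spacing recurs, with TGACG beginning 55 and 101 bases before the start and ATTGG beginning 30 and 76 bases before it, and a CCAAT follows in both. B2m holds all 3 motifs, the ISRE core beginning 139, TGACG 78 and ATTGG 53 bases before the start. H2-T23 holds the ISRE core and a Y box but no TGACG in this window. H2-Eb1 holds a Y box on each strand and neither of the other motifs. Over the member genes with an entry (31 genes, 33 promoters), the Y box letters were found in 29 of 33 promoters, against 33.8% of all 32851 RefSeq promoters of this length. TGACG was found in 13 of the 33 against 17.8% of all, and the ISRE core in 3 against 2.98%. Those 3 belonged to B2m, H2-T23 and H2-T22. Class I genes arose by duplication and their promoters resemble each other, so these counts are not independent, and a match to the letters is not a measured binding site. Only these exact letters were sought, so a promoter without a match, H2-K1 and H2-D1 for the ISRE core included, may still hold a variant of the element.

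Between KO and WT, 1 of the 43 members tested was higher in KO and 1 was lower at an adjusted p below 0.1 (edgeR's quasi-likelihood test, Benjamini-Hochberg over all 16725 genes tested). The member higher in KO was Nlrc5, the class I transactivator, and the member lower in KO was H2-Ke6, which encodes no MHC molecule. These shares, 2.33% each way, stood beside 1.32% of all genes tested called higher and 2.67% called lower, shares that a change of 1 gene among the members would reorder. At an unadjusted p below 0.05 there were 5 members of 43 (11.6%), against 18.8% of all genes. KO and WT libraries did not overlap for 3 members (6.98%), Nlrc5, H2-Ke6 and H2-T10, beside 6.36% of all genes. DESeq2 with the settings of the study called Nlrc5 and H2-T10 higher and H2-Ke6 lower, where it called 3.5% of all genes higher and 3.29% lower.

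**Figure D3:**
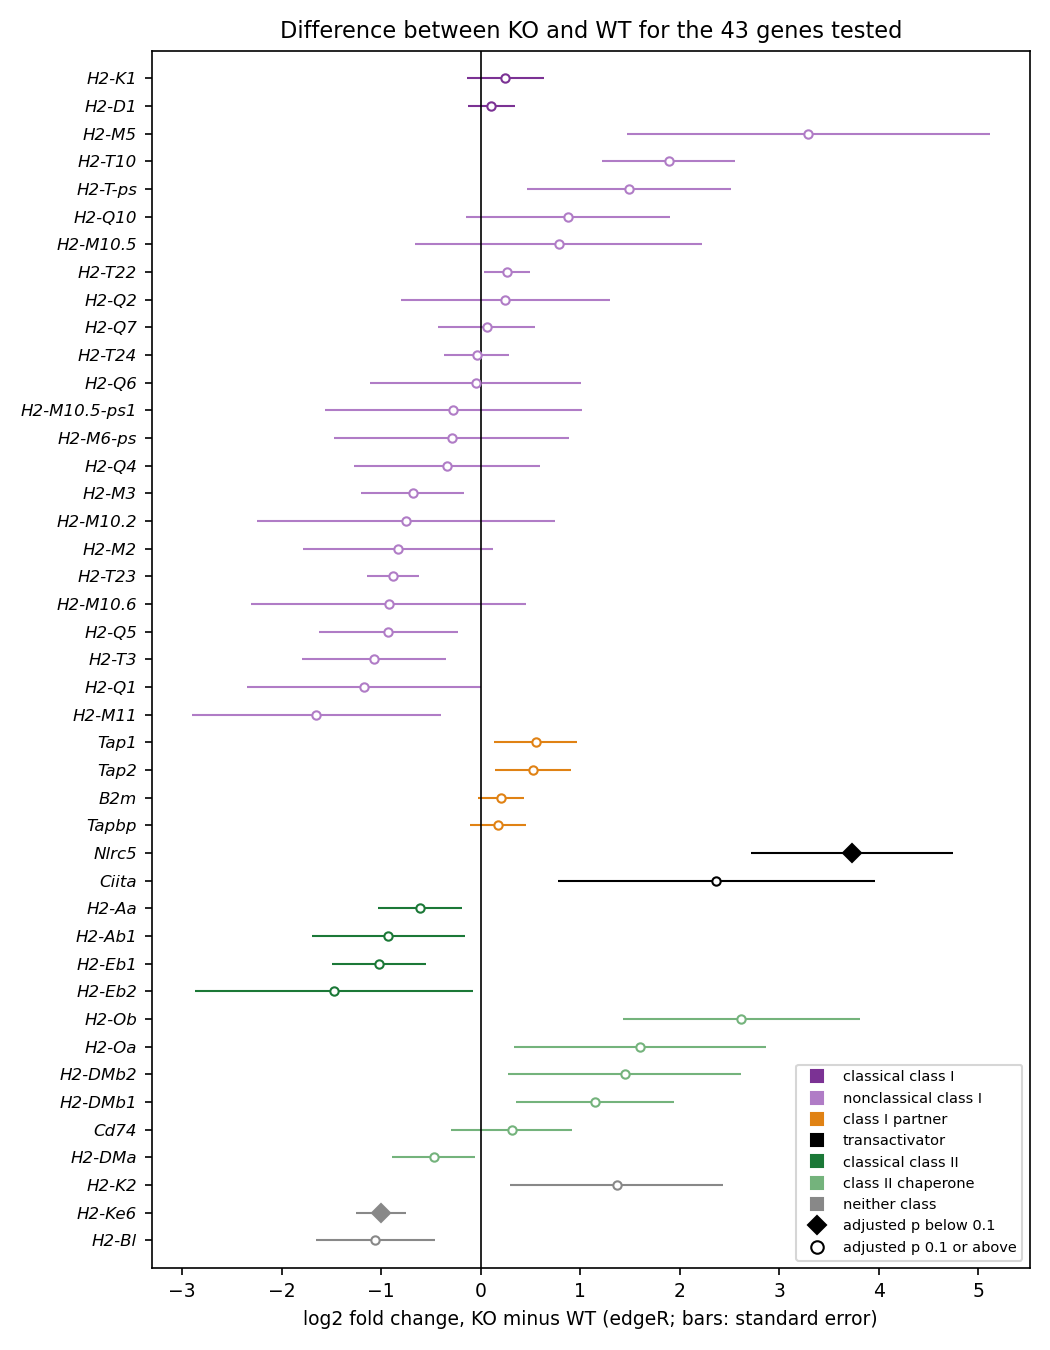
log2 fold change, KO minus WT, with its standard error from edgeR, for the 43 members tested, coloured by class; filled diamonds mark an adjusted p below 0.1. The diamonds are Nlrc5 at 3.73 and H2-Ke6 at -1.01, the 4 class II chains all lie left of 0, and 5 of the 6 class II chaperones lie right of it, without any of them passing the test.

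Nlrc5 was the member with the widest difference. It had 4.08, 6.64, 0.54, 4.28, 1.92 and 1.25 CPM in KO replicates 1 to 6, and 0.45, 0.27, 0.15 and 0 CPM in WT replicates 1 to 4. Every KO library was above every WT library, although KO replicate 3 exceeded WT replicate 1 only narrowly. The log2 fold change was 3.73 ± 1.02 (SE), with a 95% interval of 1.38 to 6.07 from 8 residual degrees of freedom and an adjusted p of 0.0913 in edgeR. The WT level rested on few reads, 6, 3, 2 and 0 counts, and a count of 0 in WT replicate 4 allows up to 0.425 CPM (3 counts). Pooled over the libraries of a group, 294 KO counts against 11 WT counts gave a ratio of 10.9 (95% exact interval 5.99 to 22.02, counting error only). Part of these reads came from the last exons: a pair of transcripts that hold only the 3′ end of the gene took 53.7 of 67.0 estimated counts in KO replicate 1, 62.0 of 63.0 in KO replicate 5 and all of those in WT replicate 1, but 0 of 42.0 in KO replicate 2.

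Whether Nlrc5 passed the adjusted threshold depended on single libraries, although its unadjusted p stayed between 0.00173 and 0.00929 with each left out (edgeR). Leaving out each library in turn, the log2 fold change stayed between 3.38 and 4.32, while the adjusted p ran from 0.0663 to 0.212 and was below 0.1 only without KO replicate 3. With Xist as a covariate for sex, the log2 fold change was 3.89, the unadjusted p 0.00487 and the adjusted p 0.263 (edgeR). In 7 of the alternatives, the Xist fit included, at most 1 gene was called over all genes. With a transcript length offset the log2 fold change was 3.41 and the adjusted p 0.111 (edgeR). KO replicates 2 and 3, the KO libraries with Xist, were both above all 4 WT libraries. KO replicates 1, 2 and 4 had the highest Nlrc5 and the highest sums of the 10 stem cell markers, 810, 879 and 985 TPM. Without Esam, which gave 492 of the 810 TPM in KO replicate 1, the sums of these 3 libraries were 318, 541 and 638 TPM, and KO replicates 5 and 6 at 332 and 464 TPM exceeded KO replicate 1. Of the 10 stem cell markers, 2 (Mecom and Hlf) were called higher in KO and 0 lower, beside 1.32% and 2.67% of all genes tested. Their part in the Nlrc5 result was not tested.

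**Figure D4:**
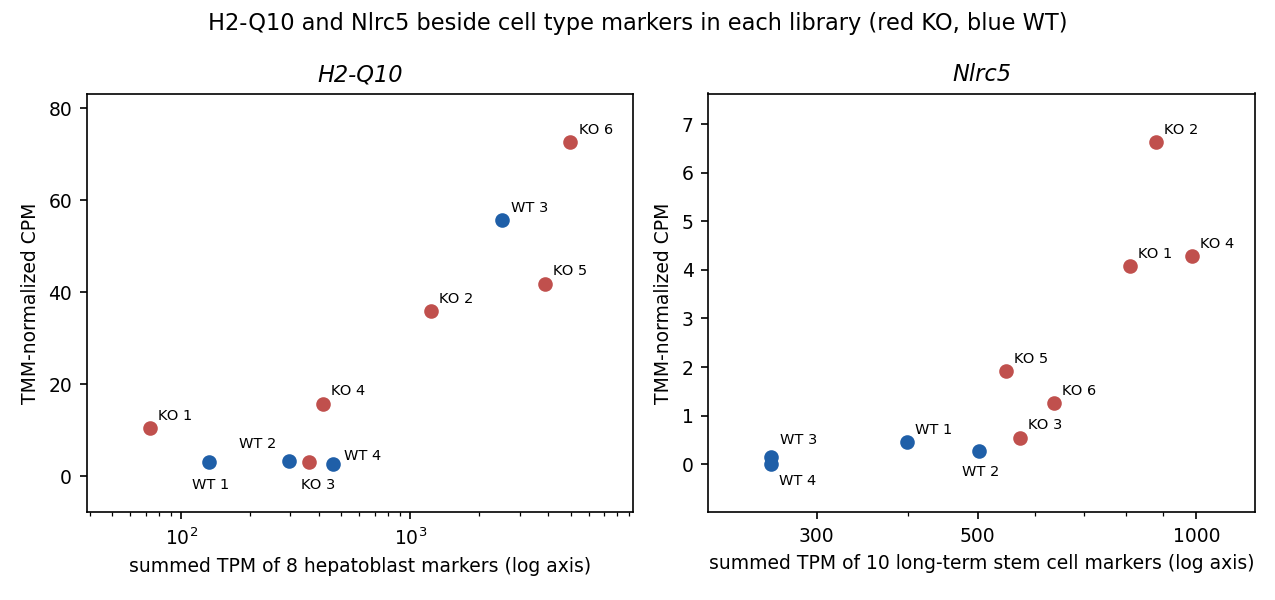
CPM of H2-Q10 against the summed TPM of 8 hepatoblast markers, and CPM of Nlrc5 against the summed TPM of 10 stem cell markers, a dot per library (red KO, blue WT; the marker axes are logarithmic). H2-Q10 is highest in KO replicates 6, 5 and 2 and WT replicate 3, the 4 libraries with the most hepatoblast transcripts, and Nlrc5 is highest in KO replicates 1, 2 and 4, where stem cell markers, Esam included, sum to 810 TPM or more.

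Ciita, the class II transactivator, was close to undetected. It had 19, 0, 0, 3, 14 and 8 counts in the KO libraries and 0, 3, 0 and 0 in the WT libraries. The groups overlapped, and the pooled ratio of 5.97 had an exact counting interval from 1.91 to 30.0. The adjusted p over libraries was 0.452 in edgeR.

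None of the classical class I genes or B2m passed the test. H2-K1 had 275, 473, 77.6, 457, 317 and 341 CPM in KO and 261, 215, 230 and 385 CPM in WT. The groups overlapped widely, with KO replicate 3 below and KO replicates 2 and 4 above all WT libraries. The log2 fold change was 0.25 (95% interval -0.64 to 1.14) and the adjusted p 0.786 (edgeR), and the log2 fold change was 0.45 without KO replicate 3 and 0.46 without WT replicate 4. H2-D1 had 315, 523, 226, 494, 299 and 381 CPM in KO and 419, 338, 339 and 291 CPM in WT, a log2 fold change of 0.10 (interval -0.44 to 0.65). B2m had 460, 515, 373, 510, 607 and 387 CPM in KO and 265, 437, 343 and 608 CPM in WT, a log2 fold change of 0.20 (interval -0.33 to 0.74). For B2m and H2-D1 the intervals leave out a doubling, and for H2-K1 they do not. KO replicate 3, the lowest library for H2-K1 and H2-D1, was also the highest for endothelial markers. Among KO it was the lowest for Mecom (13.8 TPM), Hlf (3.19 TPM) and the sum of stem cell markers without Esam (124 TPM). It was not the lowest for Esam (447 TPM) or Ly6a (26.5 TPM). The part of these markers in the class I values was not tested.

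The peptide transporter chains and tapasin lay above 0 in log2 fold change, and none passed the test. Tap1 had 17.7, 58.0, 17.4, 36.5, 29.1 and 36.9 CPM in KO and 14.9, 10.3, 32.5 and 31.3 CPM in WT, a log2 fold change of 0.55 (interval -0.41 to 1.52). Tap2 had 19.3 to 58.3 CPM in KO (median 46.0) and 39.4, 26.1, 37.6 and 11.9 CPM in WT, a log2 fold change of 0.53 (interval -0.35 to 1.40). Tapbp differed by 0.17 (interval -0.48 to 0.83), and 24.9% of its exonic bases also belong to an antisense transcript.

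H2-T23 came nearest to a call among the genes for MHC molecules. It had 140, 175, 117, 207, 240 and 207 CPM in KO and 505, 259, 219 and 351 CPM in WT. Of the 6 KO libraries, 5 lay below the lowest WT library, and KO replicate 5 lay above WT replicate 3. The log2 fold change was -0.88 ± 0.26 (SE), with an adjusted p of 0.11 that did not pass the threshold (edgeR). Of the 19 alternative settings, 4 called it lower in KO, with adjusted p values between 0.0401 and 0.263 over all of them. Without WT replicate 1, its highest library, the log2 fold change was -0.61. Of its 31-base words, 74.2% were unique to it in GENCODE vM21. These words come from all its annotated transcripts and are not weighted by reads, so the share of its reads that could be told apart is not known.

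**Figure D5:**
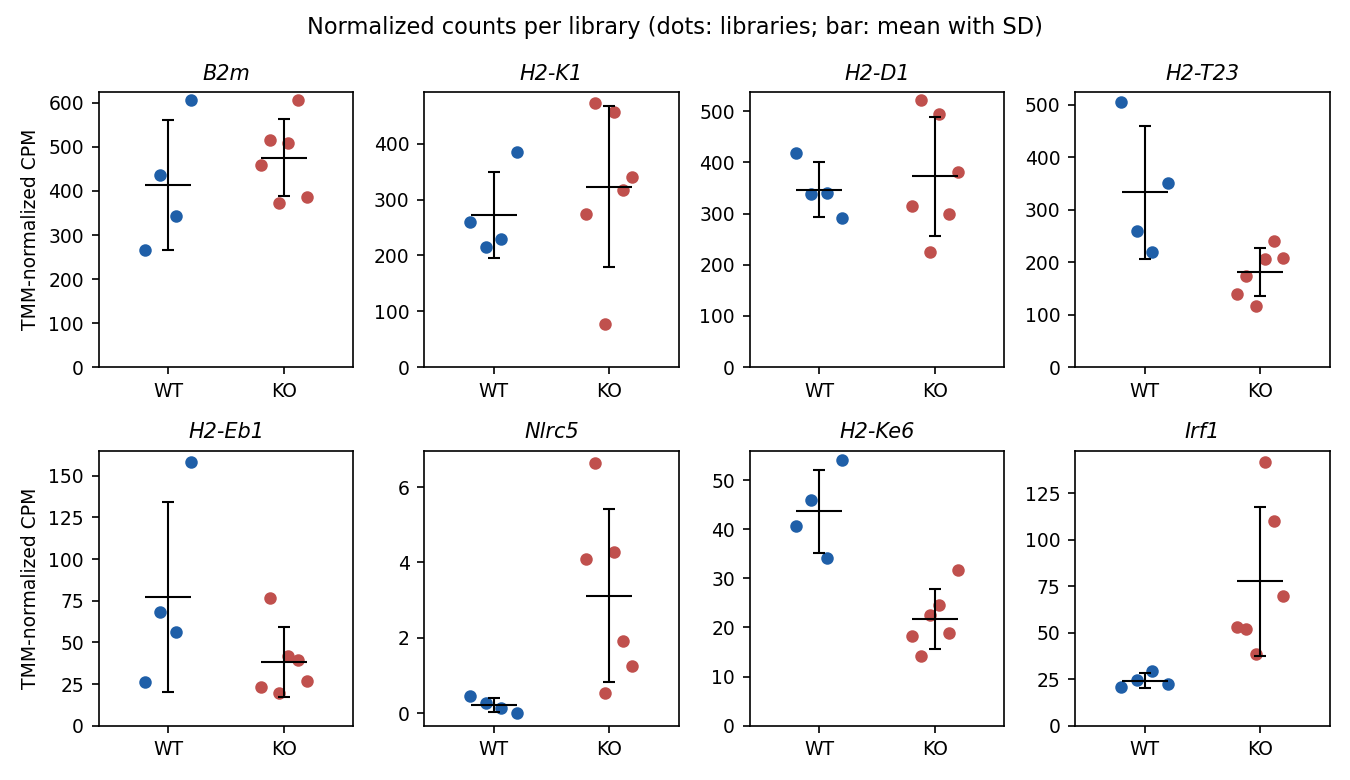
TMM-normalized CPM of 8 genes in the 4 WT and 6 KO libraries, with the mean and SD of each group; axes differ between panels. B2m, H2-K1, H2-D1 and H2-Eb1 overlap between the groups, whereas every KO library lies above every WT library for Nlrc5 and Irf1 and below for H2-Ke6.

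H2-T10, known in some strains as a nonclassical molecule seen by gamma delta T cells and annotated in GENCODE vM21 as a polymorphic pseudogene, had 3.90, 5.37, 3.74, 7.24, 6.59 and 4.01 CPM in KO and 0.30, 1.69, 2.81 and 0.71 CPM in WT. The groups did not overlap, with a log2 fold change of 1.89 ± 0.66 (SE) and an adjusted p of 0.159 (edgeR), and DESeq2 with the settings of the study gave 0.0403. Its identity is uncertain: 47.6% of its 31-base words also occur in H2-T22, and 27.1% of its exonic bases lie under the antisense gene BC023719. H2-T22 itself, at 38.4 to 51.9 CPM in KO and 25.1 to 50.9 CPM in WT, had a log2 fold change of 0.26 (interval -0.28 to 0.81).

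Among the other nonclassical genes, H2-M3 had 43.4 to 192 CPM in KO (median 77.9) and 37.1, 126, 108 and 311 CPM in WT, a log2 fold change of -0.68 that became 0.00 without WT replicate 4. H2-T24 had 15.5 to 32.1 CPM in KO and 13.2 to 38.6 CPM in WT. H2-Q7 and H2-Q6, members of the Qa-2 group, had log2 fold changes of 0.06 and -0.05, with standard errors of 0.48 and 1.06. The genes of the Q group share many words: 46.9% of the words of H2-Q4, 42.1% of H2-Q5, 48.2% of H2-Q6 and 60.8% of H2-Q7 were unique, so their split is uncertain. H2-T3 (1.03 to 6.48 CPM in KO, 1.06 to 13.6 CPM in WT), H2-Q5 (0.70 to 10.9 and 2.28 to 17.3 CPM) and H2-Q4 (0.13 to 3.53 and 0.52 to 2.97 CPM) overlapped between the groups. So did H2-Q1 (0 to 1.90 and 0.18 to 2.58 CPM), the pseudogene H2-T-ps (0.11 to 2.50 and 0.14 to 0.80 CPM) and, outside both classes, H2-K2 (0.36 to 2.63 and 0 to 1.24 CPM) and H2-Bl (1.25 to 3.32 and 1.44 to 7.64 CPM).

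H2-Q10, a soluble class I molecule made by the liver, was the most variable abundant member. It had 10.5, 35.9, 3.14, 15.8, 41.9 and 72.7 CPM in KO and 3.19, 3.46, 55.7 and 2.69 CPM in WT. The 4 highest libraries, KO replicates 6, 5 and 2 and WT replicate 3, were also the 4 with the most hepatoblast transcripts, at 4986, 3849, 1229 and 2519 TPM summed over 8 markers such as Alb and Afp. The other 6 libraries had 73.0 to 461 TPM of these markers. The log2 fold change was 0.88 ± 1.02 (SE) with all libraries and 3.31 without WT replicate 3, where the adjusted p was 0.0971 (edgeR). Whether the hepatoblast transcripts account for H2-Q10 was not tested.

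Over the 24 class I members tested, 0 were called in either direction by edgeR, 2 were at an unadjusted p below 0.05 (H2-T10 higher and H2-T23 lower) and DESeq2 with the settings of the study called 1. The median log2 fold change of class I was -0.16, with 10 members above and 14 below 0, beside a median of 0.06 over all genes tested. Restricted to the 13 class I members with a mean of at least 1 CPM, the median was -0.04. The lowest members, 9 of them between 0.12 and 0.40 CPM on average (H2-Q2, H2-M2, H2-M5, H2-M6-ps, H2-M11, H2-M10.2, H2-M10.5, H2-M10.5-ps1 and H2-M10.6), rested on 17 to 53 counts over all libraries, too few to show a difference at this depth. H2-M5 had 28 KO counts, 16 of them in KO replicate 2, against 2 WT counts.

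No class II member passed the test. The 4 chains had negative log2 fold changes and 5 of the 6 chaperones positive ones, where 53.1% of all genes tested were positive, and H2-Ab1, H2-Eb2, Cd74 and H2-Oa changed sign under other settings. H2-Eb1 had 23.2, 76.8, 19.7, 42.1, 39.5 and 27.0 CPM in KO and 26.2, 68.3, 56.2 and 158 CPM in WT. Only KO replicates 1 and 3 lay below all WT libraries, the log2 fold change was -1.02 ± 0.47 (SE) with an adjusted p of 0.266 (edgeR), and it was -0.40 without WT replicate 4. H2-Aa had 3.60, 5.53, 3.41, 5.46, 5.63 and 4.60 CPM in KO and 6.67, 4.88, 5.47 and 11.7 CPM in WT, a log2 fold change of -0.61 (interval -1.59 to 0.37). H2-Ab1, which codes for the beta chain that pairs with H2-Aa, had 2.55 to 7.11 CPM in KO and 21.9, 3.28, 9.02 and 0.28 CPM in WT. H2-Eb2 stayed under 0.5 CPM in all libraries but WT replicate 4 (2.55 CPM).

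The class II genes did not share 1 order of the WT libraries. WT replicate 1 was the highest library for H2-Ab1 and for Cd74 (10.1 CPM), and WT replicate 4 was the lowest for H2-Ab1 and for Cd74 (1.13 CPM). WT replicate 4 was in turn the highest for H2-Eb1, H2-Aa, H2-DMa (36.4 CPM) and H2-M3. Without WT replicate 1 the log2 fold change of H2-Ab1 was 0.10 in place of -0.93. KO libraries were less spread, with Cd74 at 3.84, 6.64, 2.98, 6.46, 6.31 and 5.92 CPM and a log2 fold change of 0.31 (interval -1.08 to 1.70).

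Of the chaperones, H2-Ob, the beta chain of H2-O, had 0.61, 1.42, 1.25, 4.10, 5.35 and 2.63 CPM in KO and 0, 0.27, 1.33 and 0 CPM in WT. KO replicates 4, 5, 6 and 2 lay above all WT libraries, with a log2 fold change of 2.62 ± 1.19 (SE) and an adjusted p of 0.259 (edgeR). Without WT replicate 3, its highest WT library, the log2 fold change was 4.70 and the adjusted p 0.107 (edgeR), and DESeq2 without a fold-change threshold gave 0.0912. H2-Oa, the alpha chain, had 3.53, 0, 0, 4.96, 1.42 and 3.55 CPM in KO and 0.28 to 1.33 CPM in WT. The 2 KO libraries at 0 were replicates 2 and 3, those with Xist, and with Xist as a covariate the log2 fold change of H2-Oa went from 1.597 to -3.92. H2-DMb1 and H2-DMb2 share 31.4 and 29.7% of their words with each other and had log2 fold changes of 1.15 and 1.44 with standard errors of 0.79 and 1.17. H2-DMa differed by -0.47 (interval -1.43 to 0.49).

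Over the 10 class II members tested, 0 were called by edgeR and 0 by DESeq2 with the settings of the study, and 1 (H2-Ob) was at an unadjusted p below 0.05. Their median log2 fold change was -0.08, against -0.16 for class I and 0.06 for all genes tested. The class II median lay between -0.19 and 0.56 when each library was left out. It was positive without WT replicate 1 (0.56), WT replicate 4 (0.52), KO replicate 3 (0.05) or KO replicate 1 (0.02) and with edgeR's filterByExpr (0.29), and was -0.56 with Xist as a covariate. Class I in turn was positive without WT replicate 3 (0.05) or WT replicate 4 (0.02), so the order of the class medians depended on single libraries. Beside these values, 11 of the 14 macrophage markers, 5 of 7 dendritic cell markers and 3 of 6 B cell markers were above 0 in every library. Some were close to 0, such as Adgre1 at 0.0235 TPM in KO replicate 1. The B cell markers summed to 13.0 to 55.6 TPM in KO and 2.56 to 32.1 TPM in WT. Most of that was Cd79b, at 11.5 to 54.5 TPM in KO and 2.12 to 30.6 TPM in WT. The part of all these markers in the class II values was not tested.

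H2-Ke6 (Hsd17b8), a mitochondrial enzyme of fatty acid and steroid metabolism, had 18.3, 14.2, 22.6, 24.5, 18.8 and 31.8 CPM in KO and 40.6, 46.0, 34.1 and 54.1 CPM in WT. Every KO library lay below every WT library, and the fold change was 2.01 in favour of WT (log2 -1.01 ± 0.25 SE, adjusted p = 0.0836, edgeR). KO replicates 2 and 3, with Xist, gave 14.2 and 22.6 CPM, and with Xist as a covariate the log2 fold change was -1.16 and the adjusted p 0.263. Left out in turn, the libraries kept the log2 fold change between -1.15 and -0.89. The adjusted p lay between 0.0763 and 0.205, below 0.1 without KO replicate 3 and without WT replicate 3. The unadjusted p lay between 0.000645 and 0.00579 (edgeR). With a transcript length offset the log2 fold change of H2-Ke6 was -0.92 and the adjusted p 0.104 (edgeR). Its reads are shared: 86.4% of its exonic bases also belong to the readthrough-like transcript Gm20427 on the same strand, and 23.9% of its 31-base words are its own. In TPM the groups overlapped, at 19.5 to 36.1 in KO and 26.5 to 56.9 in WT.

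The other genes of the class I pathway, 10 listed and tested, had 0 called higher and 1 lower, beside 1.32% and 2.67% of all genes tested, with a median log2 fold change of -0.24 beside 0.06 for all genes. At an unadjusted p below 0.05 there were 4 of 10, 1 higher and 3 lower, against 18.8% of all genes. The gene called was Psme2, a subunit of the proteasome activator PA28 that interferon gamma induces. It had 140, 185, 185, 191, 210 and 199 CPM in KO and 302, 246, 248 and 418 CPM in WT, all KO below all WT, with a log2 fold change of -0.71 ± 0.19 (SE, adjusted p = 0.0905, edgeR). Its partner subunit Psme1 had a log2 fold change of -0.07 (interval -0.53 to 0.40). The highest genes of the list per length were the folding factors Pdia3 and Calr of the peptide-loading complex, at 390 and 374 TPM over all libraries, and Psme2 at 321 TPM. Their log2 fold changes were -0.26 for Pdia3 and -0.21 for Calr. The immunoproteasome subunits Psmb8 and Psmb9 had 0.51 and 0.47, with intervals that include 0, and were lowest in KO at replicate 3 (33.8 and 4.98 CPM), as H2-K1 was. Psmb10, another immunoproteasome subunit, went the other way. Its log2 fold change was -0.69 (interval -1.33 to -0.04, adjusted p = 0.208, edgeR).

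Of the class I-like genes outside the H2 names, 8 were in the table and tested and 0 were called by edgeR, with 1 at an unadjusted p below 0.05 and 1 called by DESeq2 with the settings of the study. That gene was Procr, the endothelial protein C receptor, a class I-like fold that binds no peptide and serves as a stem cell marker. It had 17.9 to 69.7 CPM in KO and 5.69 to 28.7 CPM in WT, a log2 fold change of 1.49 ± 0.46 (SE, adjusted p = 0.117, edgeR). Fcgrt, the neonatal Fc receptor, led the list at 139 TPM with a log2 fold change of -0.20, and Cd1d1, which presents lipids, was at 15.6 TPM with 0.67 (interval -0.20 to 1.55).

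Of the 8 other class II pathway genes, 1 was called lower and 0 higher, beside 2.67% and 1.32% of all genes tested. Log2 fold changes were negative for 7 of the 8 (median -0.35), where 53.1% of all genes were positive (median 0.06). At an unadjusted p below 0.05 there was 1 of the 8, against 18.8% of all genes. Ifi30, the thiol reductase that unfolds proteins in endosomes, had 21.5, 15.02, 10.02, 19.4, 19.0 and 18.2 CPM in KO and 121, 28.7, 54.6 and 36.1 CPM in WT. All KO libraries lay below all WT libraries, with a log2 fold change of -1.80 ± 0.37 (SE, adjusted p = 0.0824, edgeR), and WT replicate 1 was again the highest. The cathepsins Ctsl, Ctsb and Ctsd led the 6 genes with a TPM value at 308, 260 and 227 TPM and had log2 fold changes of -0.10, -0.31 and 0.05. Their intervals all include 0.

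The promoter factors that hold Nlrc5 and Ciita on DNA had 0 of 7 calls by edgeR, beside 1.32% of all genes called higher and 2.67% lower. DESeq2 with the settings of the study called 0, where it called 3.5% of all genes higher and 3.29% lower. Rfx5, which binds the X box, was at 8.12 to 19.0 CPM in KO and 2.69 to 12.5 CPM in WT (log2 fold change 1.09 ± 0.46 SE, adjusted p = 0.218, edgeR). It was the only gene of the list at an unadjusted p below 0.05, where 18.8% of all genes were. Nfyc, Nfyb and Rfxank, the highest per length at 65.4, 24.3 and 14.2 TPM, had log2 fold changes of 0.08, -0.36 and 0.04.

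In interferon signalling to MHC genes, 1 of 9 genes was called higher and 0 lower, beside 1.32% and 2.67% of all genes tested, and 2 of 9 were at an unadjusted p below 0.05, against 18.8% of all genes. Irf1, the interferon-induced factor that binds the response element shown above, had 53.1, 52.0, 38.7, 142, 110 and 69.8 CPM in KO and 20.9, 24.3, 29.7 and 22.2 CPM in WT. Every KO library exceeded every WT library, with a log2 fold change of 1.68 ± 0.36 (SE, adjusted p = 0.0824, edgeR). Its relative Irf2 had a log2 fold change of 0.95 ± 0.32 (SE, adjusted p = 0.144, edgeR). Jak1 and Ifngr1, with Irf1 the highest of the list at 107, 58.0 and 29.2 TPM, had log2 fold changes of 0.18 for Jak1 and -0.15 for Ifngr1. Over the 19 alternatives, Irf1 and Ifi30 were each called in 12 and Psme2 in 10, with adjusted p up to 0.264.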

How the data were processed

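The study sorted LT-HSCs from fetal livers, amplified their bulk RNA with SmartSeq2 and sequenced 10 libraries (6 KO, 4 WT) as single-end reads. The authors quantified reads on GENCODE vM16 transcripts (GRCm38) with kallisto 0.44.0 after bcl2fastq 2.20, per the submitters' notes and methods. The authors deposited for each library estimated counts and TPM per transcript, neither filtered, and 1 table of whole-number counts per gene symbol for all libraries, without normalization. TPM was summed here over the transcripts of a gene and used for levels between genes, since amplification and length affect counts.

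The test took every gene with a total of 11 counts or more and used edgeR 4.0.16 in R 4.3.3 (TMM, glmQLFit with robust estimation, glmQLFTest), a design without covariates, and Benjamini-Hochberg adjustment over 16725 genes. Calls used an adjusted p below 0.1, the threshold of the study. Standard errors came from the quasi-likelihood F statistic. DESeq2 1.42.0 with the log2 fold-change threshold of 0.1 of the study was an alternative. The scripts were tested on simulated data. Symbols, positions, exon overlaps and 31-base words came from GENCODE vM21 (GRCm38, newer than the release of the study), matching 16942 of 17404 rows. SmartSeq2 keeps no strand, so antisense partners cannot be told apart. Tables were made with Python 3.11.15 and pandas 2.3.3.

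Samples were grouped by the genotype in the labels, and replicates were numbered in accession order. The study gives its groups as 4 WT and 6 KO embryos, while the labels do not tie a library to an embryo, so p-values measure the spread between libraries. Reads carry no molecular identifiers, so intervals on counts and floors cover counting error only. The members, gene lists and alternatives were chosen with earlier results of these data known. Named were all members and, of the other lists, genes with an adjusted p below 0.1 and the 3 highest by mean TPM. Psme1, Psmb8, Psmb9, Psmb10, Rfx5 and Irf2 were added after their values were seen. As alternatives, DESeq2 was run with its threshold and again with none, and edgeR was run with DESeq2 size factors, 3 other count filters, no robust estimation, a transcript length offset (loess span 0.3), Xist as a covariate and each library left out.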

Additional observations from a re-analysis of the deposited data

Results flagged for a closer look

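In 9 of the 86 groups of libraries examined over the 43 members, the highest library stood apart from the rest of its group by Dixon's criterion. Its nominal rate of 1 group in 20 holds for normally distributed values. Several of these groups lay near 0 CPM, so the 9 cannot be set against that rate. KO replicate 2, the shallowest library, accounted for 5 of them: H2-M3 at 192 CPM, H2-T3 at 6.48 CPM, H2-M5 at 2.53 CPM, H2-M10.5 at 1.90 CPM and H2-M6-ps at 0.63 CPM. WT replicate 4, the shallowest WT library, stood apart for H2-Eb2 at 2.55 CPM and H2-M10.6 at 0.85 CPM. WT replicate 3 stood apart for H2-Q10 at 55.7 CPM, beside the hepatoblast markers given above. WT replicate 2 stood apart for Ciita at 0.27 CPM, which is 3 counts. The lowest library stood apart in none of the 86 groups.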

How the results depend on the processing

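No paired analysis was possible because the labels give the groups no shared replicate numbers. Over all genes, 221 were higher and 446 lower in KO; DESeq2 gave 585 higher with the fold-change threshold, 998 higher and 1145 lower without it, the transcript length offset 48 higher, and Xist as a covariate 0 higher and 1 lower (edgeR, 2433 at an unadjusted p below 0.05). With each library left out, 0 to 405 were higher and 0 to 598 lower (edgeR), and the 6 of these fits with at most 1 call had 2473 to 2966 genes at an unadjusted p below 0.05. Of members, DESeq2 called 2 higher with the threshold, and 3 higher and 2 lower without it. With filterByExpr 2 were lower, and with Xist 0 were called in either direction (5 at an unadjusted p below 0.05). The length offset gave 0 higher and 1 lower, H2-T23 in place of H2-Ke6. Without single libraries, 0 to 1 members were higher and 0 to 2 lower, and the class II median was -0.19 to 0.56. Counting H2-K2 and H2-Bl in class I, chosen after seeing the data, left its median at -0.16, and keeping members with at least 1 CPM moved the class II median to 0.31.

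Of the 43 members, 26 kept the sign of their log2 fold change in each of the 17 to 19 alternatives that tested them, and none of the other 17 was called. The length offset gave -0.00968 for H2-T22 and -0.18 for H2-Q7. The Xist covariate gave -0.40 for H2-Q7, -3.92 for H2-Oa, 0.34 for H2-M6-ps and -1.38 for Ciita. With libraries left out, the ranges that crossed 0 were -0.00143 to 1.16 for Cd74, -1.33 to 0.10 for H2-Ab1, -0.0159 to 0.21 for H2-D1, -1.90 to 2.00 for H2-Eb2, -0.35 to 1.41 for H2-M10.5, -0.78 to 0.74 for H2-M10.5-ps1, -1.36 to 1.81 for H2-M10.6, -1.05 to 0.00325 for H2-M3, -1.39 to 0.23 for H2-M6-ps, -0.0806 to 0.97 for H2-Q2, -1.01 to 0.18 for H2-Q4, -0.48 to 0.89 for H2-Q6, -0.25 to 0.46 for H2-Q7 and -0.23 to 0.34 for H2-T24. Leaving out WT replicate 4 changed the sign of 10 members, and the cause was not tested. Of the 10 highest members by TPM, 9 were among the 10 highest by TMM-normalized counts per kilobase, in another order. Depth limits the members under 1 CPM, where 3 counts are 0.0928 to 0.474 CPM.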
